A study of Mus musculus with 6 samples.

Results

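Neurotrophin, Ras and ERK cascade genes were examined in the hippocampus of Phf8 KO and WT mice. The set was a list of 49 genes, and its probe sets were those that the array's gene table names with a listed gene alone. This gave 141 of 45037 probe sets for 45 of the 49 genes. Of these, 110 probe sets of 43 genes passed a filter on dim signals (a log2 signal over the array's 40th percentile, on no fewer than 3 of the 6 arrays), among 27408 that passed in all. No probe set was matched in this way for Ntf3, Frs2, Hras and Mapk3, which were not analysed here, and the 3 probe sets of Shc3 and Sh2b2 lay below the filter.

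Neurotrophins such as BDNF bind Trk receptors at the synapse, and the phosphorylated receptor gathers adaptor and docking proteins (SHC, FRS, GRB2, GAB). GRB2 brings SOS, an exchange factor that loads RAS with GTP, and RAS then starts the kinase relay of RAF, MEK and ERK, which in hippocampal neurons is known for its part in synaptic plasticity and memory. GTPase-activating proteins such as neurofibromin, and the SPRY and SPRED inhibitors, keep the relay in check.

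The study set 3 hippocampus samples of Phf8 KO mice against 3 of WT mice, each on 1 Affymetrix array, to ask which transcripts differ without Phf8, which encodes a histone demethylase. The labels give C57BL/6 as the background and 10 weeks as the age of both groups. According to the study's methods, the exons for the core of the demethylase domain were deleted with EIIa-Cre, a transgene active throughout the early embryo, so the deletion was not limited to neurons. The KO mice were males carrying their only Phf8 copy in deleted form, and the WT mice were littermates. Whether an array held tissue of 1 mouse or a pool is not settled by the methods, so p-values measure the spread between these samples. All levels are log2 MAS5 signals, the array maker's summary of the probes of a probe set, and a difference of 1 is a change of 2 times in signal.

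On the bright Phf8 probe set 1460398_at the log2 signal was 8.26 ± 0.28 in KO and 9.76 ± 0.13 in WT hippocampus (SD, n = 3 each), a difference of -1.51 (adjusted p = 0.124 from limma). The dim Phf8 probe sets 1439132_at and 1459392_at were below the filter and were not tested. On both the groups overlapped (0.32 and -0.06). The array of KO replicate 3 stood apart. Over the probe sets that passed the filter it correlated at 0.899 to 0.925 with the other arrays, which correlated at 0.968 to 0.985 among themselves. All 9 of the 11 thalamus markers that could be measured were highest on KO replicate 3. Their median lay 3.34 above the WT mean on the log2 scale in KO replicate 3, against 0.29 and 0.24 in KO replicates 1 and 2, and the summed thalamus signal was 12.24 to 14.998 (log2) in KO and 11.72 to 11.99 in WT. The 6 measured CA1 pyramidal cell markers had a median of -0.95 on that array, against 0.06 and 0.05 in KO replicates 1 and 2. They did not all agree. Wfs1 was highest on KO replicate 3 (11.36, against 10.54 to 10.72 on the other arrays), and the other CA1 markers were lowest on it. The 4 measured erythrocyte markers had medians of -3.38, -3.95 and -3.55 on the 3 KO arrays. Alas2, Hbb-b2 and Slc4a1 were below every WT array on each of them, while Hba-a2 overlapped (-0.38). Of the 8 dentate gyrus granule cell markers, only 1 was higher on average in KO. Their medians were -0.16, -0.19 and -0.35 on KO replicates 1 to 3, against 0.19, 0.09 and -0.20 in WT. Choroid plexus markers varied within both groups, with medians of 1.32, 0.28 and -1.82 in KO and 0.09, 0.91 and -1.06 in WT. The part of tissue composition in the results below was not tested, and in bulk tissue fewer cells of a type cannot be told apart from less RNA per cell. The plot of differences therefore shows every kept probe set with and without KO replicate 3, and values that it moved are given in the text. Leaving out that array does not remove the marker differences on KO replicates 1 and 2.

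No cascade gene passed the test. Of 110 member probe sets, 0 had an adjusted p under 0.05 in limma, with a lowest adjusted p of 0.773, where 0.0219% of all 27408 probe sets passed. At an unadjusted p under 0.05, 3 member probe sets were higher in KO (background 3.12%) and 7 were lower (6.36% of the members, background 3.06%). The 7 became 14 without KO replicate 2, 13 without KO replicate 3 and 1 without any one WT replicate, where 4.77%, 6.77% and 1.16% to 1.43% of all probe sets were lower at that level. The 10 probe sets belong to 9 genes. Those higher in KO were of the adaptor genes Gab1, Gab2 and Grb2, and those lower in KO were of Spred1 (2 probe sets), Spry4, Rasgrf1, Sh2b3, Braf and Ksr1.

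The cascade genes leaned towards lower signal in KO. The mean was lower in KO for 73 of 110 member probe sets (66.4%, against 51.9% of all), and the median KO minus WT difference was -0.10 on the log2 scale, against -0.01 over all 27408. Without KO replicate 3 the medians were -0.12 and -0.01. Without KO replicate 2 they were -0.08 and 0.01, and 55.5% of member probe sets were lower, against 48.3% of all. All 3 KO arrays lay below every WT array for 20 member probe sets of 15 genes (18.2%, background 7.83%), and above every WT array for 7 probe sets of 6 genes (background 7.37%). Probe sets of 1 gene share their target, and Spred1 alone held 6 of the 20, which left 14 of the 103 others. Taking the brightest probe set of each gene, 9 of 43 genes lay below every WT array (20.9%, background 7.13%) and 3 lay above (background 9.56%). These counts describe a list of 43 genes and were not tested as a list.

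The size of the differences was small. A fold of at least 1.5, the criterion named in the study's methods, was reached by 3 member probe sets higher in KO (background 3.84%) and 7 lower (background 3.82%). KO replicate 3 was the lowest of the 6 arrays for 44 member probe sets (40%, background 34.7%) and the highest for 31 (28.2%, background 34.2%). Without that array, 13 member probe sets were lower in KO at an unadjusted p under 0.05 (11.8%, background 6.77%), 5 were higher (background 5.78%), and again none had an adjusted p under 0.05.

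**Figure D1:**
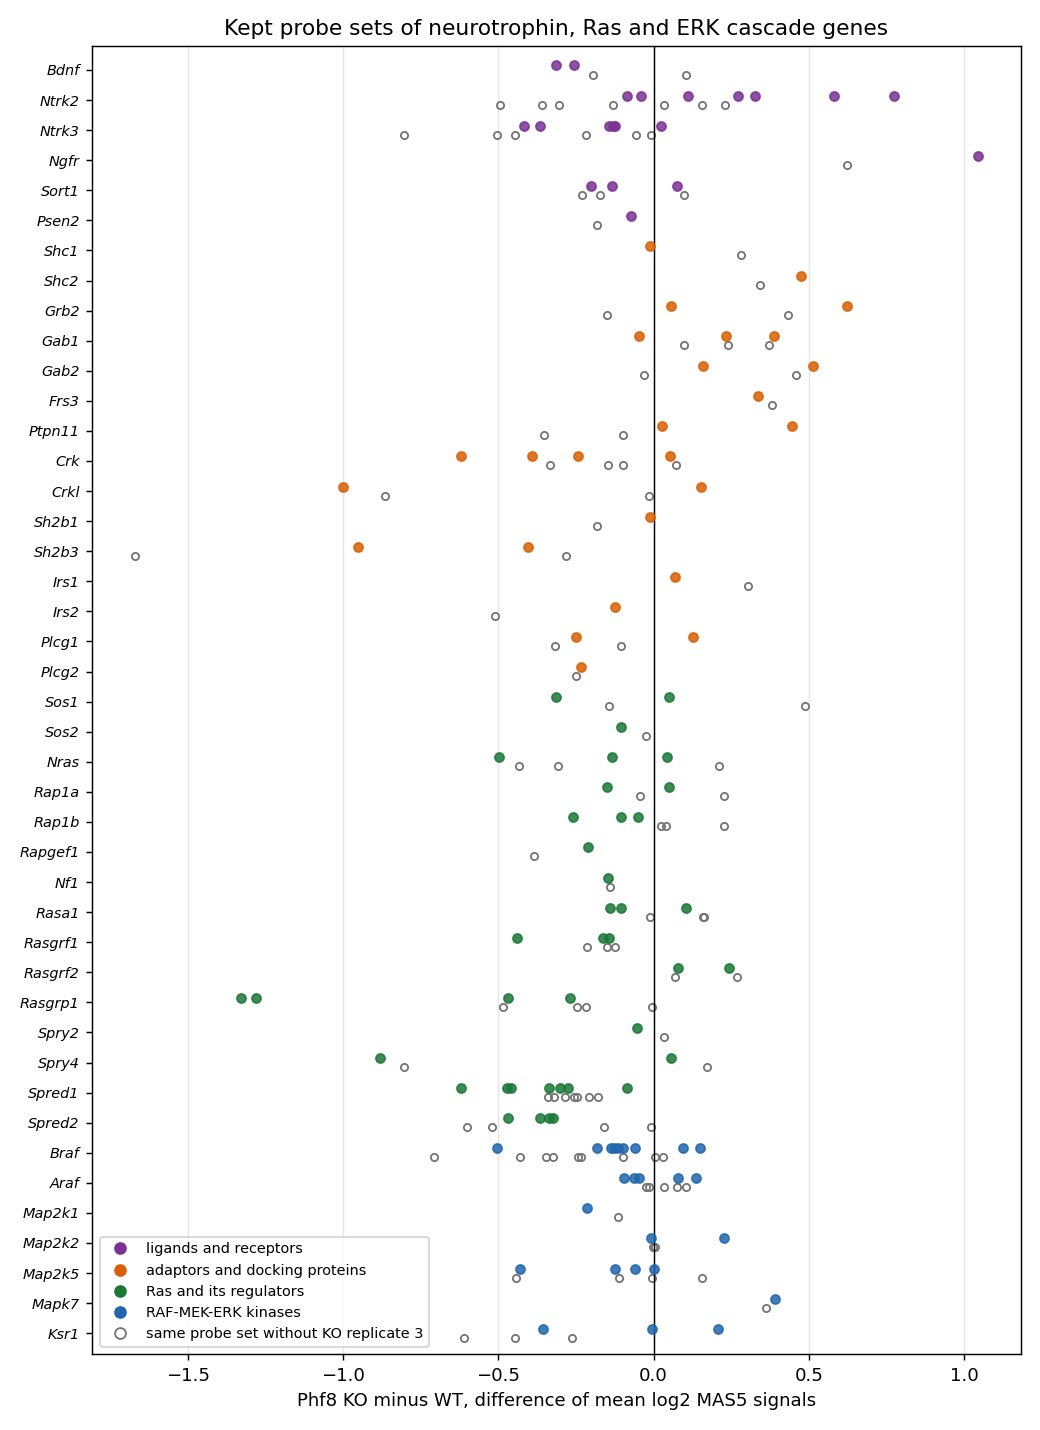
Difference of mean log2 MAS5 signal, Phf8 KO minus WT (x axis), of each of the 110 kept probe sets, by gene (y axis). Filled points use all 3 KO arrays and are coloured by role, and open circles are the same probe sets without KO replicate 3. The points of Spred1 and Spred2 all lie left of 0, as filled and as open circles.

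The genes were then split by their role in the cascade. Among Ras and its regulators, 32 of 39 kept probe sets were lower on average in KO (82.1%, against 51.9% of all 27408). Of these, 12 lay below every WT array (background 7.83%), and the median difference over the 39 was -0.21. Spred1 alone held 7 of the 32 and 6 of the 12, and Spred2 held 4 of the 32 and 1 of the 12. The same 39 gave 27 lower and a median of -0.14 without KO replicate 3. Ligands and receptors had 12 of 20 lower with a median of -0.08, the RAF, MEK and ERK kinases with their scaffold had 17 of 25 lower with a median of -0.06, and adaptors and docking proteins had 12 of 26 lower with a median of 0.04. On single arrays, the Ras and regulator median was -0.09, -0.13 and -0.36 in KO replicates 1 to 3, and between -0.02 and 0.02 on the WT arrays. It was thus below the WT arrays on each KO array and farthest below on KO replicate 3. The adaptors gave 0.07, -0.04 and 0.26 in KO, against -0.04, -0.01 and 0.02 in WT. Leaving out KO replicate 3 gave a median of -0.10 for the adaptors (16 of 26 lower), -0.18 for the ligands and receptors (14 of 20 lower) and -0.10 for the kinases (17 of 25 lower). On KO replicates 1 to 3 the ligand and receptor median was 0.04, -0.31 and 0.11. The kinase median was 0.05, -0.22 and -0.02. In these roles KO replicate 2 was thus the lowest KO array, and KO replicate 1 was not below WT. Differences between the roles were not tested.

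**Figure D2:**
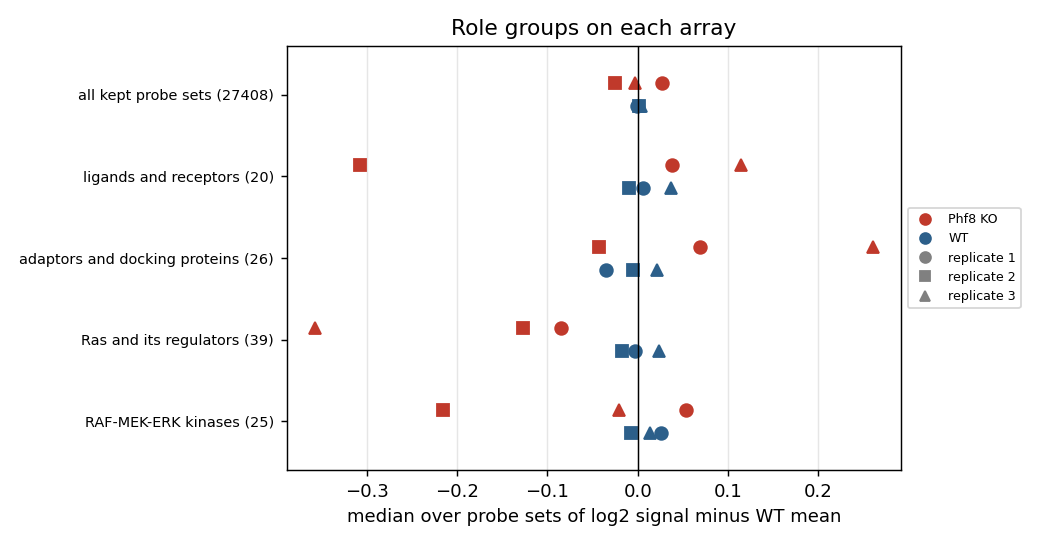
Median over probe sets of the log2 signal minus the WT mean (x axis) on each array, for all kept probe sets and for the 4 roles (y axis, with the number of probe sets). Red marks are KO arrays, blue marks WT arrays, and shapes give the replicate number. For Ras and its regulators the 3 KO arrays lie at -0.09, -0.13 and -0.36, left of the WT arrays.

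The ligand Bdnf was measured by 2 probe sets, both lower on average in KO. The brighter, 1422168_a_at, had log2 signals of 10.29, 10.30 and 9.93 in KO against 10.60, 10.49 and 10.37 in WT. All KO arrays were below all WT arrays, with the smallest gap between KO replicate 2 and WT replicate 3. The difference of -0.32 (standard error 0.14, unadjusted p = 0.0640 from limma, adjusted p = 0.782) was -0.20 without KO replicate 3. The second Bdnf probe set differed by -0.26, and by 0.10 without that array, so its direction rested on KO replicate 3.

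Ntrk2, the TrkB receptor that binds BDNF, had 7 kept probe sets, 5 of them higher on average in KO, with differences of -0.09 to 0.77. Its brightest, 1458622_at, read 12.49, 12.58 and 12.32 in KO against 12.49, 12.40 and 12.62 in WT, and the groups overlapped (-0.04). Only 1435196_at separated them, with 11.69, 11.68 and 12.02 in KO against 11.43, 11.56 and 11.57 in WT (difference 0.27, unadjusted p = 0.0590 from limma). Dimmer Ntrk2 probe sets were far higher on KO replicate 3 than on the other arrays. On 1435305_at that array read 11.57, against 9.62 and 9.25 in KO replicates 1 and 2 and 9.49 to 9.61 in WT, and on 1437560_at it read 10.28, against 8.43 and 8.01 in the other KO and 8.33 to 8.71 in WT. Without KO replicate 3, 4 of the 7 were lower in KO. On 1420838_at the difference was then -0.30 (unadjusted p = 0.0158 from limma), against -0.09 with all arrays.

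Of the other receptors, Ntrk3, the TrkC receptor of neurotrophin-3, had 5 of 6 probe sets lower on average in KO, with differences of -0.42 to -0.12, and its brightest, 1433825_at, overlapped with 10.70, 10.54 and 10.40 in KO against 10.80, 10.67 and 10.57 in WT (-0.13). All 6 were lower without KO replicate 3. The only kept probe set of Ngfr, the p75 receptor, showed the largest positive difference of the kept member probe sets (1.05, or 0.62 without KO replicate 3), but read 6.41, 6.44 and 7.69 in KO against 5.53, 6.98 and 4.89 in WT, so the groups overlapped and 2 WT arrays lay below the filter levels of 5.73 to 6.05. Sort1, the sortilin co-receptor of p75, had 11.81, 11.57 and 11.61 in KO against 11.86, 11.88 and 11.85 in WT on its brightest probe set. KO was below WT throughout (-0.20, unadjusted p = 0.0771 from limma), while the other 2 Sort1 probe sets overlapped. Psen2, a catalytic subunit of gamma-secretase, which cleaves p75, differed by -0.07 on its bright probe set, and its dim one is described with the study's table below.

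**Figure D3:**
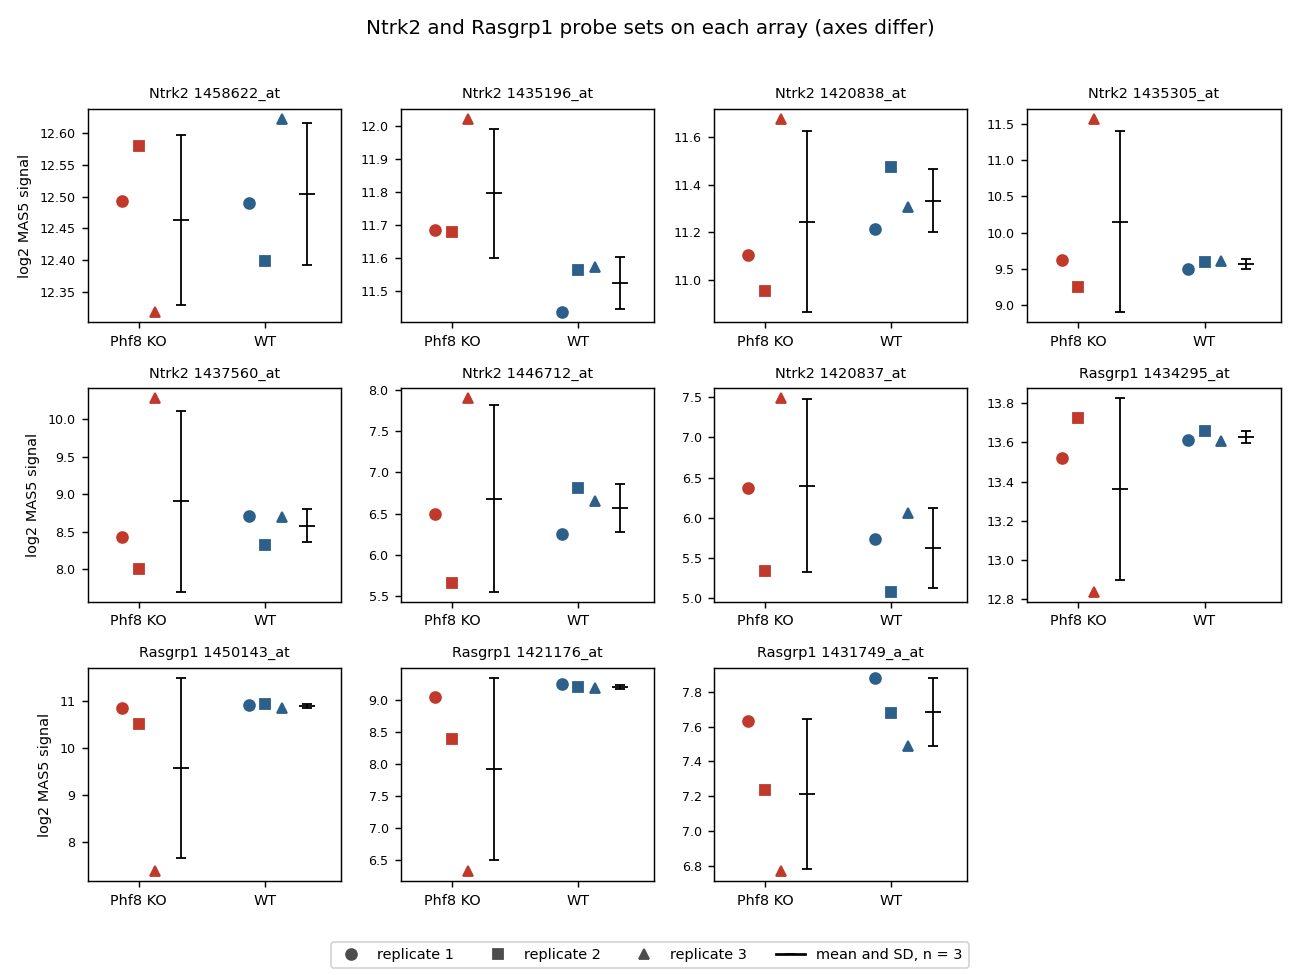
Log2 MAS5 signal (y axis, scales differ) of each kept Ntrk2 and Rasgrp1 probe set on the 3 KO arrays (red) and 3 WT arrays (blue), with mean and SD. KO replicate 3, the red triangle, reads 11.57 on Ntrk2 1435305_at and 7.36 on Rasgrp1 1450143_at, outside the range of the other 5 arrays.

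Adaptors held the 3 probe sets that were higher in KO at an unadjusted p under 0.05. Gab2, a docking protein, had 9.40, 9.57 and 9.65 in KO against 9.16, 8.90 and 9.02 in WT on 1419829_a_at. Every KO array was above every WT array, and the difference of 0.51 (standard error 0.14, unadjusted p = 0.00810 from limma, adjusted p = 0.773) was a fold of 1.43 and was 0.46 without KO replicate 3. A dimmer Gab2 probe set overlapped (0.16). Gab1, a related docking protein, had 9.92, 10.20 and 10.11 in KO against 9.65, 9.79 and 9.62 in WT on its brightest, 1417693_a_at (0.39, unadjusted p = 0.0206 from limma). Its next, 1417694_at, likewise lay above WT on all KO arrays, with 9.64, 9.75 and 9.67 in KO against 9.53, 9.56 and 9.26 in WT (0.23). The dimmest Gab1 probe set, 1448814_at, read 7.77, 7.71 and 7.30 in KO against 7.48, 7.78 and 7.66 in WT and overlapped (-0.05, or 0.10 without KO replicate 3).

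Grb2, the adaptor that carries SOS to the receptor, gave unlike answers on its 2 probe sets. On 1418508_a_at it had 9.31, 9.40 and 9.92 in KO against 8.88, 8.82 and 9.07 in WT, above WT on every KO array and highest on KO replicate 3. The difference was 0.62 (standard error 0.19, unadjusted p = 0.0139 from limma, adjusted p = 0.773), a fold of 1.54, and 0.43 without KO replicate 3. The brighter 1449111_a_at had 9.77, 9.67 and 10.34 in KO against 9.87, 9.84 and 9.91 in WT. There the groups overlapped, and the difference was 0.06 with KO replicate 3 and -0.15 without it.

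Grb2 1418508_a_at is in a table of neurotrophin genes that the study chose on these samples, so its direction is not independent of that choice. That table also lists Frs2 as higher in KO, on a probe set that was not matched to Frs2 here. It holds dim probe sets of Psen2 and Shc3, a neuronal SHC adaptor. Psen2 1431542_at had 6.24, 5.53 and 5.97 in KO against 5.59, 3.94 and 5.26 in WT (0.98), and Shc3 1450326_at had 5.70, 5.57 and 4.93 in KO against 4.32, 4.93 and 4.50 in WT (0.82). Both were below the filter and were not tested, and in both the lowest KO array was below the highest WT array. With an offset of 16 signal units before log2, the Psen2 fold was 1.5995 and the Shc3 fold 1.46. Of all 31 member probe sets below the filter, 7 reached a fold of 1.5 higher in KO and 6 lower, and with the offset 1 and 2 did so. Over all 17629 probe sets below the filter, 25.0% and 21.3% reached it, or 7.29% and 4.66% with the offset, against 22.6% and 19.4% of these members, or 3.23% and 6.45% with the offset. Among them were Ngfr 1450177_at (1.63) and 1421241_at (-1.59), which had opposite signs.

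Among the other adaptors, Sh2b3 1433455_at, of an SH2B-family adaptor known in blood cells as a brake on cytokine signaling, read 7.93, 7.99 and 7.59 in KO against 8.25, 8.22 and 8.26 in WT. Every KO array was below every WT array (-0.41, unadjusted p = 0.0456 from limma), and the median of the erythrocyte markers was lower on the same 3 KO arrays. A link between Sh2b3 and those markers was not tested. The second Sh2b3 probe set (-0.95) rested on KO replicate 2, which read 1.89 against 5.07 to 6.18 on the other 5 arrays. Crk, an adaptor that carries the RAP1 exchange factor, had 3 of 4 probe sets lower on average, with differences of -0.62 to -0.24, the dimmest of those below every WT array, while the other probe set differed by 0.05. Those 3 differed by -0.33 to -0.10 without KO replicate 3. Crkl, its close relative, differed by 0.15 on the bright probe set and by -0.999 on a dim one whose groups overlapped.

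The 2 probe sets of Ptpn11, the SHP2 phosphatase, were higher on average (0.03 and 0.45), but both were lower without KO replicate 3 (-0.10 and -0.35). Plcg2, a phospholipase C gamma, was below every WT array (-0.23), while Plcg1 differed by -0.25 and 0.13. Single probe sets of Frs3 (0.34), Shc2 (0.48), Irs1 (0.07), Irs2 (-0.12), Shc1 (-0.01) and Sh2b1 (-0.01) overlapped between the groups. When KO replicate 3 was left out, Irs2 differed by -0.51 (unadjusted p = 0.00742 from limma), Irs1 by 0.31, Shc1 by 0.28 and Sh2b1 by -0.18. The 2 dim probe sets of Sh2b2, below the filter, differed by -0.47 and 0.15.

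**Figure D4:**
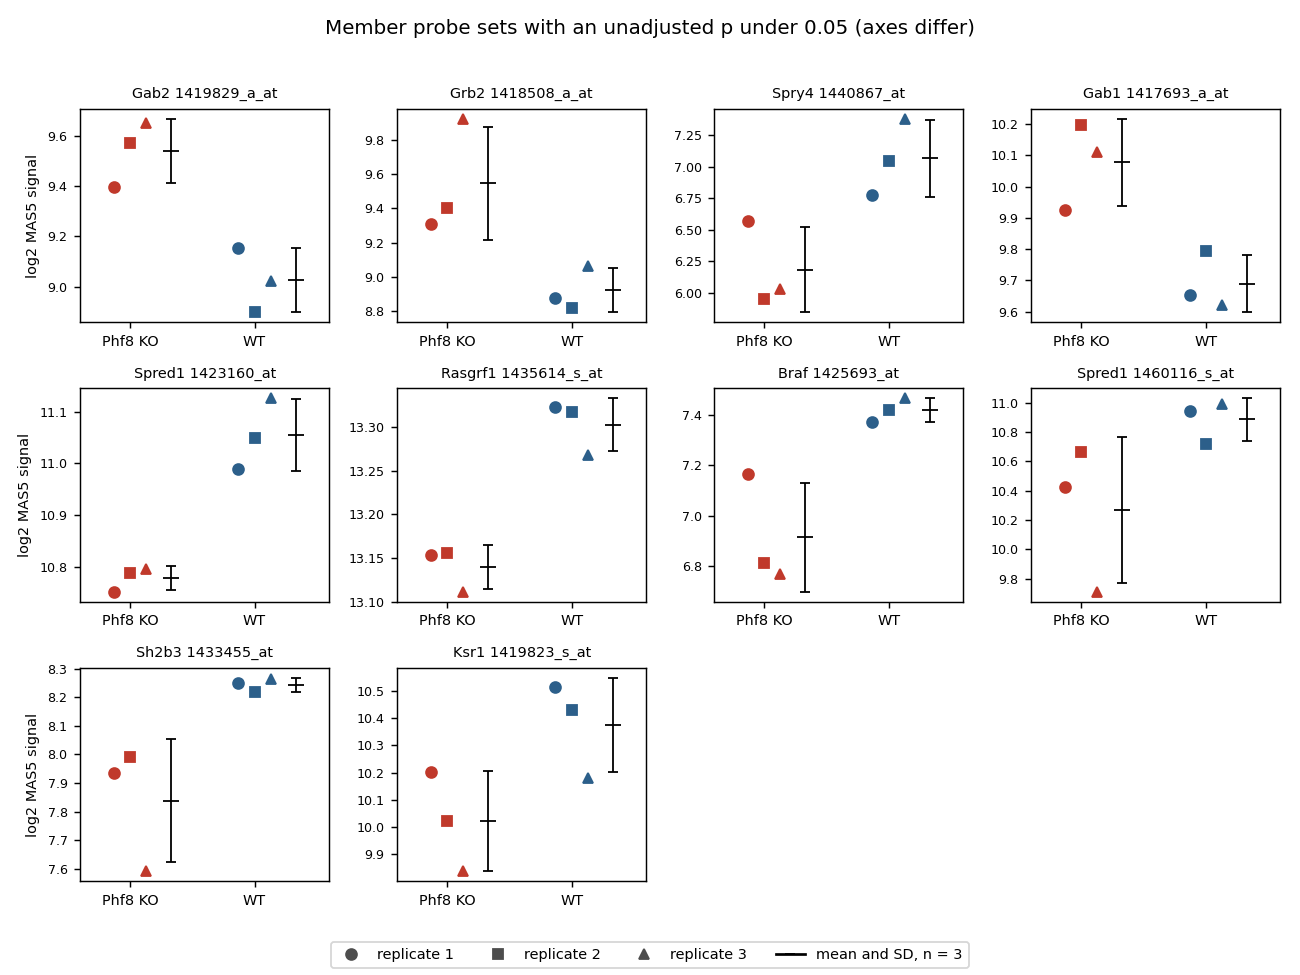
Log2 MAS5 signal (y axis, scales differ) of the 10 member probe sets with an unadjusted p under 0.05 on the 3 KO arrays (red) and 3 WT arrays (blue), with mean and SD. The groups do not overlap except for Ksr1 1419823_s_at, where KO replicate 1 at 10.20 lies above WT replicate 3 at 10.18.

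The inhibitors Spred1 and Spred2 were lower on average in KO on every kept probe set, while the third SPRED gene, Spred3 of the second list below, differed by 0.03 (0.25 without KO replicate 3) and overlapped. Spred1, a membrane-bound inhibitor that recruits neurofibromin to RAS, was lower on average on 7 of 7, with differences of -0.62 to -0.09, and on 6 of them every KO array was below every WT array. Its brightest, 1423160_at, read 10.75, 10.79 and 10.80 in KO against 10.99, 11.05 and 11.13 in WT. The 3 KO arrays lay close together and below WT, and the difference was -0.28 (standard error 0.10, unadjusted p = 0.0252 from limma, adjusted p = 0.782), a KO over WT fold of 0.83. On 1460116_s_at the signals were 10.42, 10.67 and 9.71 in KO against 10.94, 10.72 and 10.995 in WT (-0.62, unadjusted p = 0.0367 from limma), with KO replicate 3 the lowest.

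The other Spred1 probe sets repeated this order at lower signal. On 1423161_s_at Spred1 had 10.51, 10.56 and 10.07 in KO against 10.72, 10.71 and 10.71 in WT. On 1452911_at it had 9.19, 9.37 and 8.64 in KO against 9.45, 9.50 and 9.67 in WT, and on 1428777_at 8.78, 8.84 and 8.17 in KO against 8.95, 9.03 and 9.18 in WT. KO replicate 3 was lowest on all 3, and KO replicates 1 and 2 were also below WT. On 1423162_s_at, where KO replicate 3 was the highest KO array, the signals were 8.56, 8.53 and 8.60 in KO against 8.71, 8.84 and 9.05 in WT. Only the dimmest, 1443652_x_at, overlapped (-0.09), and 1 further probe set was below the filter.

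Without KO replicate 3, all 7 Spred1 probe sets stayed lower (-0.34 to -0.18), and the lowest unadjusted p was 0.00960 on 1423160_at. The dimmest, which overlapped, was higher without KO replicate 2 (0.08) and without WT replicate 3 (0.0042), and the other 6 stayed lower without any one array. Probe sets of a gene are read from the same 6 RNA samples and can cover the same transcript, so their agreement is about the measurement of Spred1 and adds no replicates. Of the 31 genes on the array with 7 kept probe sets, 3 had all lower in KO (9.68%).

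Spred2, the related inhibitor, was lower on average on 4 of 4 probe sets (-0.47 to -0.32), but less cleanly. Its brightest, 1434403_at, had 12.30, 12.44 and 11.39 in KO against 12.41, 12.42 and 12.31 in WT, so the groups overlapped and the difference of -0.34 was -0.01 without KO replicate 3. On its 2 dimmest probe sets KO replicate 2 was the lowest array instead. On 1436892_at the signals were 7.32, 6.70 and 7.41 in KO against 7.70, 7.43 and 7.71 in WT, below WT throughout (-0.47, and -0.60 without KO replicate 3). Of genes with 4 kept probe sets, 22.0% had all lower.

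The 250 bases before the start of Spred1 and Spred2, both lower on every kept probe set, are shown. Bdnf, Sh2b3, Rap1b, Rasgrf1 and Rasgrp1 were also lower on every kept probe set, and their sequences are not shown. They are RefSeq sequence of GRCm38.p6, plus strand, chr2:117120821-117121070 for Spred1 and chr11:19924192-19924441 for Spred2. Capitals mark 2 motifs searched on both strands, the ETS core CGGAAG, which factors acted on by ERK bind, and TGACG, the core of the cAMP response element.
Spred1: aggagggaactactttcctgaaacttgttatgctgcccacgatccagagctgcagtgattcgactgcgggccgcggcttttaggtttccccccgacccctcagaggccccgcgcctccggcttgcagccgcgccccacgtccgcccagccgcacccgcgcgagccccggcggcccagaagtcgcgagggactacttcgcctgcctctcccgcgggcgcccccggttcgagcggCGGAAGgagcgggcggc
Spred2: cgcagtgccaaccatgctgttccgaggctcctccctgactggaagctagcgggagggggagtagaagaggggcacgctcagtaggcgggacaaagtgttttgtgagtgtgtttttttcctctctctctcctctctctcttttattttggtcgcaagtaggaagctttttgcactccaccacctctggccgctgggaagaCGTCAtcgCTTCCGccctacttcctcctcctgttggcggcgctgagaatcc
The Spred1 stretch holds 1 ETS core and 0 TGACG cores, and the Spred2 stretch 1 of each, both read on the opposite strand. Of 32851 promoter windows of this length, 13.6% hold the ETS core and 17.8% TGACG, and of the 56 windows of 42 cascade genes, 10 and 13 do. The whole element TGACGTCA, which contains TGACG, was in 4 of the 56, those of Ptpn11, Crkl, Rap1b and Braf, and in 1.55% of all windows. A match describes the letters only, and binding was not measured here.

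**Figure D5:**
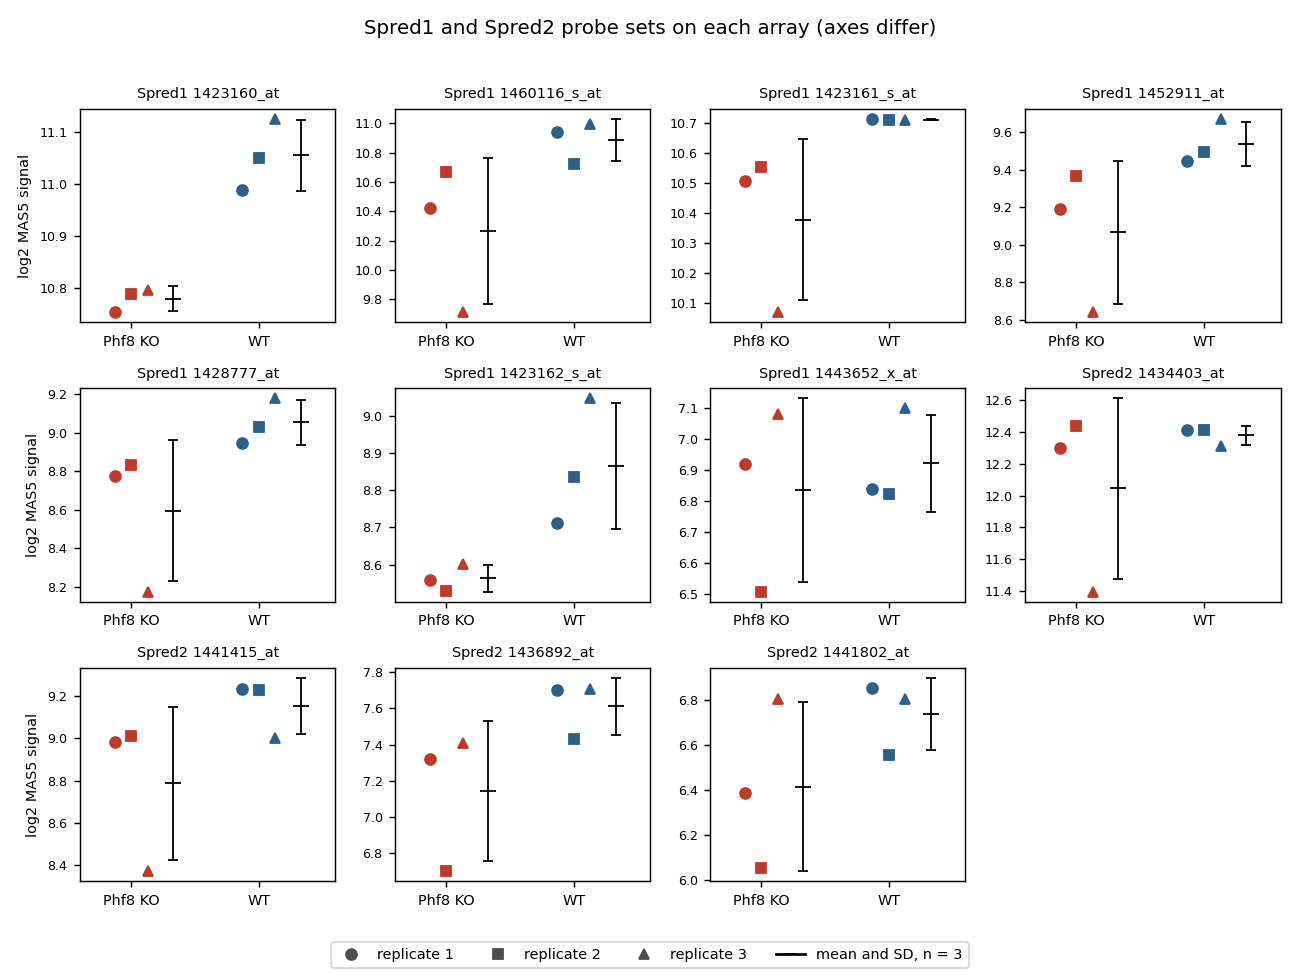
Log2 MAS5 signal (y axis, scales differ) of the 7 kept Spred1 and 4 kept Spred2 probe sets on the 3 KO arrays (red) and 3 WT arrays (blue), with mean and SD. On Spred1 1423160_at the KO arrays lie at 10.75 to 10.80 and the WT arrays at 10.99 to 11.13, while on Spred2 1434403_at only KO replicate 3 stands low, at 11.39.

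The SPRY inhibitors did not share one direction. Spry4 1440867_at had 6.57, 5.95 and 6.03 in KO against 6.78, 7.04 and 7.38 in WT. Every KO array was below every WT array, and KO replicate 3 lay just below its filter level (-0.88, standard error 0.28, unadjusted p = 0.0157 from limma, a fold of 0.54). It was -0.80 without KO replicate 3. The brighter Spry4 1445669_at read 7.91, 7.99 and 7.61 in KO against 7.52, 7.67 and 8.15 in WT and overlapped (0.06). Spry2 differed by -0.05 on its kept probe set.

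The exchange factors, which load RAS with GTP, came next. Rasgrf1, the calcium-activated exchange factor of neurons, was lower on average on 3 of 3 probe sets, with differences of -0.44 to -0.14, or -0.21 to -0.12 without KO replicate 3. Its brightest, 1435614_s_at, read 13.15, 13.16 and 13.11 in KO against 13.32, 13.32 and 13.27 in WT. The groups did not overlap and each was tight (SD 0.02 in KO and 0.03 in WT), and the small difference of -0.16 (unadjusted p = 0.0283 from limma, adjusted p = 0.782) was a fold of 0.89. Rasgrf2, its relative, was instead higher on both kept probe sets (0.08 and 0.24), the dimmer above every WT array.

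Rasgrp1, an exchange factor activated by diacylglycerol, had the most negative difference of the kept member probe sets. It was lower on average on 4 of 4 probe sets, with differences of -1.33 to -0.27. On 1450143_at the signals were 10.87, 10.51 and 7.36 in KO against 10.93, 10.94 and 10.86 in WT, and on 1421176_at 9.05, 8.39 and 6.33 in KO against 9.24, 9.20 and 9.17 in WT. KO replicate 3, on which thalamus markers were high and the median of the CA1 markers low, was far below all others on both. Without it the Rasgrp1 differences were -0.48 to -0.0048, with 1421176_at still below every WT array (-0.48, unadjusted p = 0.0285 from limma) and the brightest, 1434295_at, at -0.0048.

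Sos1 was below every WT array on its bright probe set, with 11.21, 11.32 and 10.75 in KO against 11.33, 11.45 and 11.44 in WT (-0.31, or -0.14 without KO replicate 3), and its dim kept one differed by 0.05 (0.49 without it). Sos2 (-0.11) and Rapgef1, the exchange factor of RAP1 (-0.21), overlapped. Of the GTPases, Nras differed by 0.04 on the brightest of 3 probe sets and by -0.50 to -0.13 on the others, and Rap1a by -0.15 and 0.05. Rap1b was lower on average on 3 of 3 (-0.26 to -0.05), and on 0 of 3 without KO replicate 3. Of the GTPase-activating proteins, neurofibromin, Nf1, was below every WT array by a small margin (-0.15, with 8.18, 8.21 and 8.17 in KO against 8.32, 8.29 and 8.38 in WT), and Rasa1 differed by -0.14 to 0.11 on 3 probe sets.

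In the kinase relay, Map2k1, the MEK1 kinase, had 12.86, 12.998 and 12.63 in KO against 13.08, 13.04 and 13.02 in WT. KO was below WT on every array, by a mean of -0.21 (unadjusted p = 0.0713 from limma), or -0.11 without KO replicate 3. Map2k2, the MEK2 kinase, overlapped on both probe sets (0.23 and -0.01). Araf had 5 probe sets, of which 3 were lower and 2 higher, all within -0.10 to 0.14.

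Braf, the main RAF kinase of neurons, was measured by 9 probe sets that did not run together, 7 lower and 2 higher. The brightest, 1435434_at, read 11.66, 11.74 and 11.30 in KO against 11.74, 11.69 and 11.65 in WT and overlapped (-0.13, or 0.01 without KO replicate 3). On 1425693_at Braf had 7.16, 6.81 and 6.77 in KO against 7.37, 7.42 and 7.47 in WT, below WT throughout (-0.51, unadjusted p = 0.0353 from limma). On 1456505_at it had 8.01, 7.24 and 10.19 in KO against 8.28, 8.27 and 8.45 in WT. That probe set was lower on KO replicates 1 and 2 and highest on KO replicate 3, so the difference of 0.15 was -0.71 without that array (unadjusted p = 0.0122 from limma).

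The remaining Braf probe sets overlapped, mostly with KO replicate 2 or 3 as the extreme array. Braf 1435480_at had 8.92, 8.17 and 9.53 in KO against 8.74, 8.80 and 8.79 in WT (0.09), and 1458641_at had 7.94, 6.88 and 7.72 in KO against 7.64, 7.73 and 7.58 in WT (-0.14). Neither separated KO from WT. On 1445786_at the signals were 8.10, 8.21 and 7.72 in KO against 8.12, 7.99 and 8.26 in WT (-0.12), and on 1447940_a_at 7.57, 7.06 and 7.74 in KO against 7.70, 7.78 and 7.45 in WT (-0.18). The dimmest also overlapped, 1442749_at with 6.82, 6.43 and 7.37 in KO against 6.87, 7.08 and 6.95 in WT (-0.10), and 1447941_x_at with 6.63, 6.04 and 6.46 in KO against 5.99, 6.64 and 6.66 in WT (-0.06).

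Ksr1, a scaffold that holds RAF, MEK and ERK together, was lower on its bright probe set 1419823_s_at, with 10.20, 10.02 and 9.84 in KO against 10.51, 10.43 and 10.18 in WT. The groups touched, since KO replicate 1 was above WT replicate 3 (-0.35, unadjusted p = 0.0496 from limma, and 0.0664 without KO replicate 3). Ksr1 1442581_at read 6.52, 5.79 and 7.48 in KO against 6.56, 6.50 and 6.74 in WT (-0.0045), and 1450114_at read 6.74, 3.33 and 7.48 in KO against 6.69, 4.42 and 5.82 in WT (0.21). Both are dim and overlapped. In the parallel ERK5 branch, Map2k5, the MEK5 kinase, differed by 0.00028 on its brightest of 4 probe sets and below every WT array on 1453712_a_at (-0.43), and Mapk7, the ERK5 kinase, was above every WT array on its single probe set, with 6.71, 6.87 and 6.88 in KO against 6.68, 6.36 and 6.24 in WT (0.39, unadjusted p = 0.129 from limma).

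Of 28 cascade genes with at least 2 kept probe sets, 11 ran one way on all of them, 7 lower (Bdnf, Sh2b3, Rap1b, Rasgrf1, Rasgrp1, Spred1 and Spred2) and 4 higher (Grb2, Gab2, Ptpn11 and Rasgrf2). This is 39.3%, against 54.1% of 6015 genes on the array, a share that depends on the number of probe sets per gene. Without KO replicate 3, 6 of the 11 still ran one way as before, Sh2b3, Rasgrf1, Rasgrp1, Spred1 and Spred2 lower and Rasgrf2 higher.

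A second list of 44 genes around the same cascade, among them sortilin-related receptors, further Ras-like GTPases and ERK scaffolds, was about as often higher as lower with all arrays. It gave 78 kept probe sets of 40 genes, 38 higher and 40 lower on average in KO, with a median difference of -0.01. The split was 31 higher to 47 lower, and the median -0.05, without KO replicate 3. With all arrays, 2 in each direction had an unadjusted p under 0.05, next to the backgrounds of 3.12% and 3.06%, while 0 had an adjusted p under 0.05 in limma. Sorcs1, a sortilin-related receptor, had 7.503, 7.87 and 8.97 in KO against 6.78, 6.65 and 6.84 in WT (1.35, unadjusted p = 0.00704 from limma, adjusted p = 0.773), or 0.93 without KO replicate 3. Every KO array was above WT, and the array with high thalamus markers was the highest. Rit2, a neuronal Ras-like GTPase, had 11.50, 11.59 and 12.08 in KO against 11.07, 11.15 and 11.22 in WT (0.57), or 0.40 without that array, while its other probe set overlapped (0.21). The other 2 were lower in KO without overlap. Mras, another Ras-like GTPase, had 9.86, 9.44 and 9.04 in KO against 10.16, 10.07 and 10.08 in WT (-0.66, unadjusted p = 0.0159 from limma), and Rasgrp3, a relative of Rasgrp1, had 6.14, 6.15 and 6.29 in KO against 6.995, 6.66 and 6.71 in WT (-0.60, and -0.65 without KO replicate 3). The other Mras probe set was also below every WT array (-0.18), whereas the brighter Rasgrp3 probe set overlapped (-0.0037, and 0.22 without KO replicate 3).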

How the data were processed

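Hippocampus RNA of 3 Phf8 KO and 3 WT samples was labelled with a 3' IVT kit and measured on 1 Affymetrix array each. The deposited values are log2 MAS5 signals per probe set, and the authors' scaling left a mean of 497 to 498 signal units on each array once 2% is trimmed at both ends. MAS5 and affy stand in the submitters' processing notes with no version, and the study's methods name GeneSpring and a filter on Absent calls, which were not used here. Of 45037 probe sets, the gene table (platform annotation) names 34945 with 1 gene and 932 with several, and does not hold 9160. All 141 member probe sets matched RefSeq of GRCm38.p6 by gene ID, with 0 symbols changed.

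Probe sets over the array's 40th percentile on no fewer than 3 of the 6 arrays were fitted for KO minus WT with limma 3.58.1 in R 4.3.3 (lmFit, eBayes with trend), with Benjamini-Hochberg adjustment over all 27408, and no covariates. Of the 110 member probe sets kept, 100 exceeded the level on all 6 arrays and 0 on the arrays of 1 group only. Folds are from differences of mean log2 signals. With 3 arrays per group, which limits the precision, the smallest p of an exact permutation test is 0.1. The fit was tested on simulated data with the WT spread on every array and no outlying array. That test does not show how the fit performs with an array like KO replicate 3. The members, roles, further list, marker lists and tests were chosen with earlier results of these data known.

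Named with values on every array are the brightest kept probe set of 8 core genes where one was matched, the 3 of smallest p in each role, the member probe sets of the study's table, genes with an unadjusted p under 0.05 and an opposite sign on another probe set, and up to 4 further genes. The other Spred1, Spred2, Rasgrp1, Ntrk2 and single probe sets given in full were chosen after their values were seen. Alternatives were other normalizations, filters, an offset, variance models, array weights, 1 probe set per gene, the replicate number as a block and leaving out each array.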

Additional observations from a re-analysis of the deposited data

How the results depend on the processing

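Member probe sets with an adjusted p under 0.05 numbered 0 under every alternative reported here. The planned array weights (limma's default estimate) did not converge and gave KO replicate 1 a weight of 95.97. Their output, 33 member probe sets past an adjusted p of 0.05 (30%, against 27.1% of all probe sets), was seen before they were left out, and weights estimated gene by gene were then chosen after seeing the data. The count of member probe sets lower in KO at an unadjusted p under 0.05, 7 in the report, was 4 with median centring (2.36% of all probe sets), 3 without a variance trend (3% of all), 19 with the gene-by-gene weights (8.37% of all) and 4 with 1 probe set per gene (2.79% of all). Leaving out 1 array gave 1 to 14, with 14 without KO replicate 2, 13 without KO replicate 3 and 1 without any one of the WT replicates, and the count of higher ones ran from 2 to 5. The median difference was -0.05 with the gene-by-gene weights (-0.0456), against -0.10. The cause of these shifts was not tested.

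The labels do not say whether replicate numbers pair the samples. Deviations of same-numbered KO and WT arrays correlated at -0.02, 0.07 and 0.10, and those of differently numbered arrays at -0.11 to 0.11. With 3 arrays per group these values cannot decide whether the samples were paired. With the replicate number as a block, 4 member probe sets were lower and 3 higher at an unadjusted p under 0.05 (2.61% and 2.7% of all), and 0 passed after adjustment.

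Among the 30 named member probe sets, differences that changed sign came from those whose groups overlapped, and the report gives further sign changes without KO replicate 3 for other probe sets. With the gene-by-gene weights they were 0.00041 for Ntrk2 1458622_at, -0.0899 for Grb2 1449111_a_at, 0.13 for Gab1 1448814_at, and -0.32, 0.16 and 0.19 for Braf 1456505_at, 1458641_at and 1447941_x_at. With the offset Ksr1 1442581_at was 0.016. Leaving out 1 array gave -0.10 to 0.0328 for Ntrk2 1458622_at, -0.15 to 0.18 for Grb2 1449111_a_at, -0.14 to 0.10 for Gab1 1448814_at, -0.0711 to 0.24 for Spry4 1445669_at, -0.45 to 0.40 for Ksr1 1442581_at and -0.61 to 1.47 for Ksr1 1450114_at. For Braf it gave -0.21 to 0.0055 on 1435434_at, -0.23 to 0.44 on 1435480_at, -0.71 to 0.77 on 1456505_at, -0.22 to 0.0299 on 1445786_at, -0.35 to 0.18 on 1458641_at, -0.32 to 0.02 on 1447940_a_at, -0.35 to 0.13 on 1442749_at and -0.28 to 0.11 on 1447941_x_at. The other 458 values of the named probe sets kept their direction and side of the threshold.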
